A study of Arabidopsis thaliana with 12 samples.

Results

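Of the 692 array probes that the platform annotation ties to a single gene, 2 are described here, those for AT4G39230 and AT3G50270, out of 3439 probes in all. AT4G39230 encodes an isoflavone reductase-like protein and AT3G50270 a protein of the HXXXD acyltransferase family. Both genes were chosen by their response in earlier results of these same arrays, AT4G39230 for a higher and AT3G50270 for a lower signal after ascorbate, and both descriptions rest on sequence family. Their differences between the groups are therefore given as a description, with no test.

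The material was wild-type Arabidopsis thaliana, ecotype Columbia 0, and total RNA of each sample was read on 1 array. The 6 control samples spent 8 h in water. The 6 treated samples spent 4 h in water and then 4 h in 25 mM ascorbate, the anion of vitamin C, at pH 5.5. Both groups carry replicate numbers 1 to 6. The labels name plants and no organ, age or growth stage, and no pH for the water, so ascorbate, pH and the move to a new solution cannot be told apart. They do not say whether the samples of a group were grown separately, so the spread between them may be technical. Consecutive numbers (1 and 2, 3 and 4, 5 and 6) resembled each other within a group. Their deviations from the group mean over all tested probes correlated at 0.24, 0.19 and 0.73 in water and at 0.09, 0.30 and 0.74 in ascorbate. Deviations from a shared mean lean below 0 in unrelated samples, so 0 is not the baseline. With consecutive numbers as a random block in the fit, the consensus correlation within a block was 0.697. If consecutive numbers are repeats of 1 sample, a group holds 3 samples rather than 6. The SE values given here are then too small. Whether consecutive numbers are repeats was not tested.

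Isoflavone reductase-like proteins are NADPH-dependent reductases of small phenolic molecules. The family takes its name from the legume enzyme of isoflavonoid synthesis, and its relatives in other plants include reductases of lignans and of phenylcoumaran-type coupling products of monolignols, the alcohols from which lignin is built. HXXXD acyltransferases, also called the BAHD family, are named for a histidine and an aspartate of the active site, and they move acyl groups from coenzyme A thioesters onto alcohols and amines. Arabidopsis members take part in making lignin precursors, anthocyanin esters, surface lipids and conjugates of polyamines. The substrate of the protein encoded by AT3G50270 is not stated in the sources used here.

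The deposited values are intensities on a relative linear scale whose brightest probe stood at 100 on most arrays. The median intensity per array lay between 0.252 and 0.485, with the lowest medians, 0.252 and 0.259, on arrays 1 and 2 of the ascorbate group. Between 11.5% and 14.2% of the probes of an array were listed at 0. Both genes were above 0 on all 12 arrays, and each was read by 1 probe, so no second probe bears on either value. The number of arrays limits the precision, and in RNA of mixed cells fewer cells of a type and less RNA per cell cannot be told apart.

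The reductase-like gene was dim in both groups and brighter after ascorbate under every replicate number. The deposited intensity of AT4G39230 on water arrays 1 to 6 was 0.117, 0.0982, 0.0992, 0.148, 0.205 and 0.223. On ascorbate arrays 1 to 6 it was 0.131, 0.180, 0.130, 0.179, 0.299 and 0.329. Arrays 5 and 6 were the brightest of both groups, and the groups overlapped, since water arrays 4, 5 and 6 were above ascorbate arrays 1 and 3. The mean was 0.149 ± 0.054 in water and 0.208 ± 0.086 in ascorbate (SD, n = 6 each), a 1.40-fold higher mean. The probe stood at 4.10 to 13.2 times the floor of its array in water and at 10.4 to 23.3 times in ascorbate, where the floor is the 1st percentile of the array's positive values.

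The acyltransferase gene was dimmer after ascorbate under every number, and its groups did not overlap. The deposited intensity of AT3G50270 on water arrays 1 to 6 was 0.590, 0.733, 0.505, 0.472, 0.570 and 0.530. On ascorbate arrays 1 to 6 it was 0.0561, 0.0776, 0.221, 0.342, 0.299 and 0.334. Water array 2 was the brightest of all, and ascorbate arrays 1 and 2 were far below the other ascorbate arrays. The mean was 0.567 ± 0.092 in water and 0.222 ± 0.128 in ascorbate (SD, n = 6 each), 2.56-fold lower. The lowest value, on ascorbate array 1, was 7.45 times the floor of that array, but this floor, 0.00752, was the lowest of all arrays. On ascorbate arrays 1 and 2 the probe was dimmer than AT4G39230 was on any array, where the lowest value was 0.0982.

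**Figure D1:**
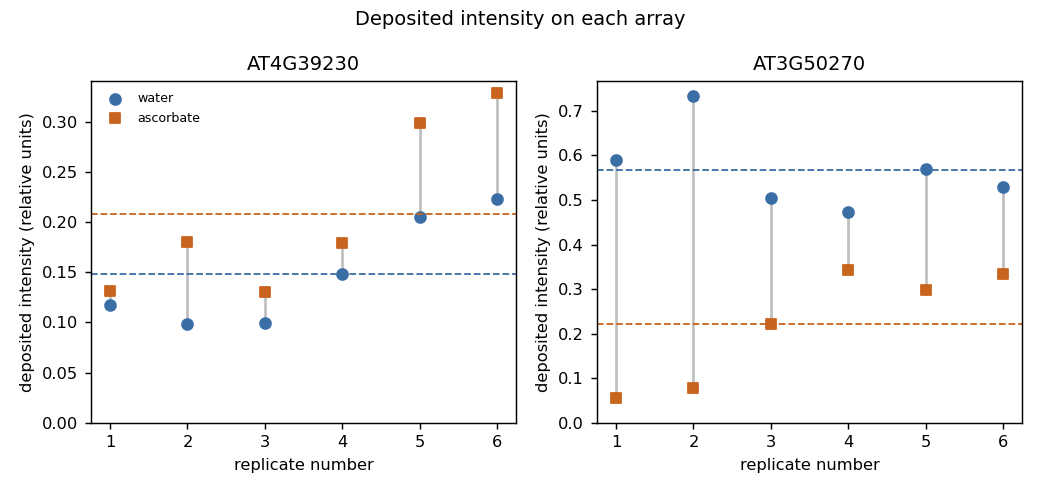
Deposited intensity (relative linear units) of AT4G39230 and AT3G50270 against replicate number, with circles for water, squares for ascorbate, grey bars joining the samples of the same number and dashed lines at the group means. AT4G39230 is higher in ascorbate under all 6 numbers although the groups overlap, and AT3G50270 is lower under all 6, most under numbers 1 and 2.

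The level of AT4G39230 differed more between the numbers than between the treatments as deposited. In log2 units of deposited intensity its 6 water values ran from -3.35 to -2.16 and its 6 ascorbate values from -2.95 to -1.60, while the difference of the means was 0.46. Taken by number, the spread was smaller. The log2 difference within a number was 0.16, 0.87, 0.39, 0.27, 0.55 and 0.56 for numbers 1 to 6, with a mean of 0.46 ± 0.25 (SD, n = 6). For AT3G50270 the 6 water values lay close together, from -1.08 to -0.45, and the ascorbate values were spread from -4.16 to -1.55. Its log2 difference within a number was -3.40, -3.24, -1.19, -0.46, -0.93 and -0.67, with a mean of -1.65 ± 1.32 (SD, n = 6). The size of the decrease thus ranged from 1.38-fold under number 4 to 10.5-fold under number 1.

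Agreement of the 6 numbers was frequent on these arrays. As deposited, 7.04% of the 3266 tested probes were higher in ascorbate under all 6 numbers, as AT4G39230 was, and 23.5% were lower under all 6, as AT3G50270 was. After normalization between arrays the shares were 15.1% and 14.1%. Groups without overlap and lower in ascorbate, as for AT3G50270, made up 9.12% of the probes as deposited and 4.07% after normalization. Since both genes were taken for their response, nothing is read from these shares about the genes.

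The arrays differed in their distribution, so differences were also taken after quantile normalization, which gives every array the same distribution of log2 values. The water arrays 1 to 6 then gave AT4G39230 log2 values of -3.57, -3.90, -3.40, -2.80, -2.81 and -2.65. The ascorbate arrays 1 to 6 gave -2.05, -1.74, -2.86, -2.42, -1.86 and -1.69. Ascorbate array 3 alone was inside the range of the water group, below water arrays 4, 5 and 6. The mean was -3.19 ± 0.51 in water and -2.10 ± 0.46 in ascorbate (SD, n = 6 each), a log2 difference of 1.08 ± 0.27 (SE of the fit over all probes), or 2.12-fold higher.

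For AT3G50270 the same normalization gave log2 values of -0.99, -0.66, -0.99, -1.12, -1.04 and -1.18 in water samples 1 to 6. The ascorbate samples 1 to 6 were at -2.95, -2.67, -2.14, -1.51, -1.86 and -1.66. Every ascorbate array was below every water array. The mean was -0.996 ± 0.18 in water and -2.13 ± 0.57 in ascorbate (SD, n = 6 each), a log2 difference of -1.14 ± 0.24 (SE of the fit over all probes), or 2.20-fold lower. By these SDs the acyltransferase gene was more spread in ascorbate, where arrays 1 and 2 were lowest, than in water.

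The normalization widened the difference of the reductase-like gene and narrowed that of the acyltransferase gene, most under numbers 1 and 2. It raised AT4G39230 by 0.89 and 0.74 log2 units on ascorbate arrays 1 and 2 and shifted it by -0.47 and -0.56 on water arrays 1 and 2. The log2 difference of AT4G39230 under number 1 was thereby 1.52 after quantile normalization against 0.16 as deposited, and under number 2 it was 2.16 against 0.87. It raised AT3G50270 by 1.21 and 1.01 on the same ascorbate arrays, so that its difference shrank from -3.40 to -1.96 under number 1 and from -3.24 to -2.01 under number 2. Under numbers 3 and 4 the normalization moved either gene by at most 0.09 log2 units on any array. There the differences were 0.53 and 0.38 for AT4G39230 and -1.15 and -0.40 for AT3G50270.

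On all 4 scales tried, as deposited, quantile normalized, centred on the array median and cyclic loess, all 6 numbers kept the higher value of AT4G39230 in ascorbate and the lower value of AT3G50270. In that order of scales the log2 difference of AT4G39230 was 0.46, 1.08, 0.86 and 0.93 and that of AT3G50270 was -1.65, -1.14, -1.26 and -1.24. The median difference of all tested probes on these scales was -0.35, 0, 0.04 and -0.02. Relative to that median, the differences were 0.81, 1.08, 0.81 and 0.95 for AT4G39230 and -1.30, -1.14, -1.30 and -1.22 for AT3G50270. Averaged over numbers 1 and 2, 3 and 4, and 5 and 6, the quantile-normalized difference was 1.84, 0.46 and 0.95 for AT4G39230 and -1.98, -0.77 and -0.65 for AT3G50270. As deposited, the first of these was 0.51 for AT4G39230, beside 0.33 and 0.55, so its larger difference under numbers 1 and 2 was absent on the deposited scale. For AT3G50270 it was present as deposited too, at -3.32 against -0.83 and -0.80. Numbers 1 and 2 gave the largest absolute difference of the 3 pairs of numbers for 47.6% of all tested probes after normalization and for 59.9% as deposited. The part of the low medians of ascorbate arrays 1 and 2 in these differences was not tested. With both samples of numbers 1 and 2 left out, the log2 difference was 0.66 ± 0.28 for AT4G39230 and -0.67 ± 0.13 for AT3G50270 (SE).

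**Figure D2:**
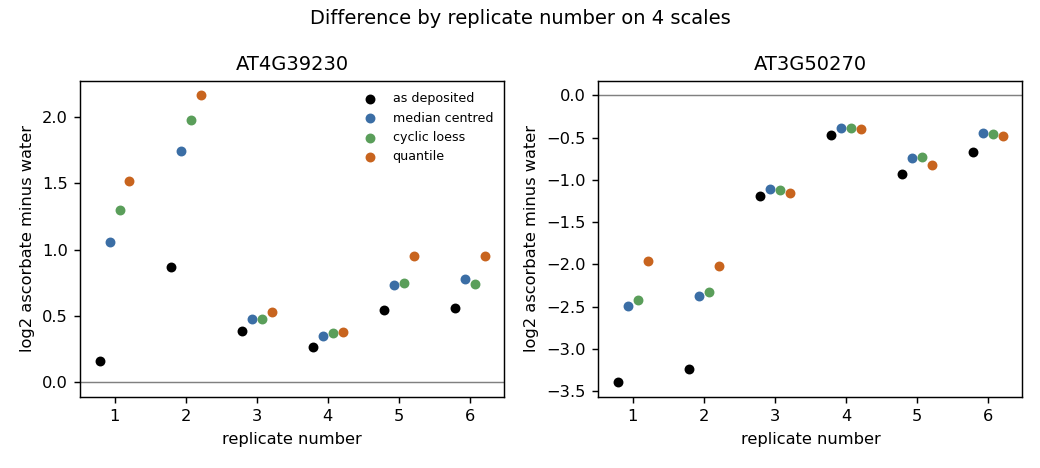
Log2 difference, ascorbate minus water, within each replicate number for AT4G39230 and AT3G50270 on 4 scales (black as deposited, blue centred on the array median, green cyclic loess, orange quantile normalized). All points of AT4G39230 are above 0 and all points of AT3G50270 below 0, and the scales differ most under numbers 1 and 2, where AT4G39230 under number 1 runs from 0.16 to 1.52.

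A ratio of the probes within an array does not depend on a factor common to all probes of that array, and its change shows how unequally they responded. It does depend on array differences that vary with intensity. On ascorbate array 1 quantile normalization shifted AT4G39230 by 0.89 and AT3G50270 by 1.21 log2 units. The log2 ratio of deposited AT4G39230 to AT3G50270 was -2.00 ± 0.63 in water and 0.12 ± 0.93 in ascorbate (SD, n = 6 each). The water values ran from -2.90 to -1.25 and the ascorbate values from -0.94 to 1.22, without overlap. By number the ratio was higher in ascorbate by 3.55, 4.11, 1.58, 0.73, 1.47 and 1.22 log2 units. These genes were taken for opposite responses, so the direction of this change is fixed by the choice. The deviations of both genes from their group means correlated at 0.39 across the 12 arrays as deposited and at -0.28 after quantile normalization, so the sign turned with the scaling.

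In the fit over the 3266 tested probes, 17.1% passed an adjusted p of 0.05 (limma, Benjamini-Hochberg adjustment), 9.74% higher and 7.38% lower in ascorbate. These were 559 probes, against 314 without number 5, 329 without number 6, 148 with consecutive numbers as a random block and 1 with them averaged. Higher calls made up 56.9% of all calls on this scale, 21.7% without normalization and 72.7% with arrays centred on their medians. AT4G39230 had the 79th highest log2 difference of the 3266 probes and the 11th highest of the 653 tested single-gene probes. AT3G50270 had the 97th lowest of all and the 21st lowest among the single-gene probes.

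**Figure D3:**
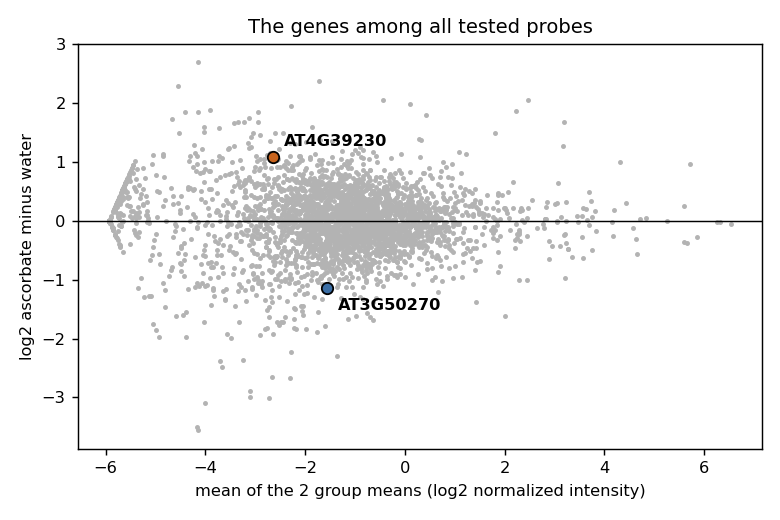
Log2 difference, ascorbate minus water, against the mean normalized log2 intensity of the 3266 tested probes (grey), with AT4G39230 in orange and AT3G50270 in blue. AT4G39230 lies at 1.08 and AT3G50270 at -1.14, inside a cloud that is wider for dim probes.

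The other genes listed for the same or related pathways had no probe of their own that could be read. A list of 173 loci held the isoflavone reductase-like family, HXXXD acyltransferases, and phenylpropanoid, lignin and flavonoid synthesis. It also held the shikimate pathway and aromatic amino acids, salicylate, glucosinolates and camalexin, and 6 terpene synthases. Of the other 171 loci, 0 had a single-gene probe, so 0 were counted higher or lower. A further 2 probes were annotated to several genes with a list locus among them, and these were given no gene name. Along the chromosome, AT3G50270 is followed by AT3G50280, AT3G50290 and AT3G50300, which are on the acyltransferase list, and none of the 5 protein-coding genes on either side of it had a single-gene probe. The same held for the 5 genes on either side of AT4G39230. Whether the listed relatives and pathway partners, or the neighbours, of either gene changed with it was therefore not analysed here. Pathway genes outside the list were not looked for among the single-gene probes.

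The single-gene probes whose levels followed the reductase-like gene most closely over the 12 arrays were those for AT1G30700, AT5G26850 and APS4, out of 547 that were above 0 on all arrays. AT1G30700 encodes a berberine bridge enzyme-like oxidase, and APS4 an ATP sulfurylase, which activates sulfate. Pearson's r with AT4G39230 was 0.93, 0.92 and 0.89 and Spearman's rho 0.91, 0.88 and 0.80, on quantile-normalized log2 values. These 12 points share 2 treatments and 6 replicate numbers, so they are not independent, and the likeness includes the difference between the groups. The deposited intensity of AT1G30700 ran from 0.747 to 1.09 in water (median 0.912) and from 1.17 to 1.48 in ascorbate (median 1.25), without overlap. AT5G26850 ran from 0.285 to 0.575 in water (median 0.333) and from 0.528 to 0.870 in ascorbate (median 0.598), with overlap. APS4 overlapped widely, at 0.390 to 0.570 in water and 0.374 to 0.663 in ascorbate. Their log2 differences were 0.57 ± 0.10, 1.03 ± 0.20 and 0.55 ± 0.19 after normalization (SE) and 0.49, 0.73 and 0.26 as deposited.

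For the acyltransferase gene the closest were AT1G74070, a cyclophilin-type peptidyl-prolyl isomerase gene, AT1G07040 and AT2G36920. Pearson's r with AT3G50270 was 0.92, 0.90 and 0.90 and Spearman's rho 0.87, 0.91 and 0.91 over the same 12 arrays. AT1G74070 ran from 0.719 to 0.805 in water (median 0.762) and from 0.121 to 0.575 in ascorbate (median 0.495). AT1G07040 ran from 0.471 to 0.634 in water (median 0.573) and from 0.0462 to 0.323 in ascorbate (median 0.205). AT2G36920 ran from 0.705 to 0.914 in water (median 0.881) and from 0.355 to 0.685 in ascorbate (median 0.650). As deposited, each of these genes was lowest on ascorbate arrays 1 and 2, as AT3G50270 was. The part of these arrays in the likeness was not tested. In each of the 3 the deposited ascorbate values were all under the water values, as for 9.12% of all tested probes. These genes were picked for levels like those of AT3G50270, so nothing is read from that count. Their log2 differences were -0.78 ± 0.21, -1.32 ± 0.22 and -0.40 ± 0.09 after normalization (SE) and -1.16, -1.80 and -0.63 as deposited.

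**Figure D4:**
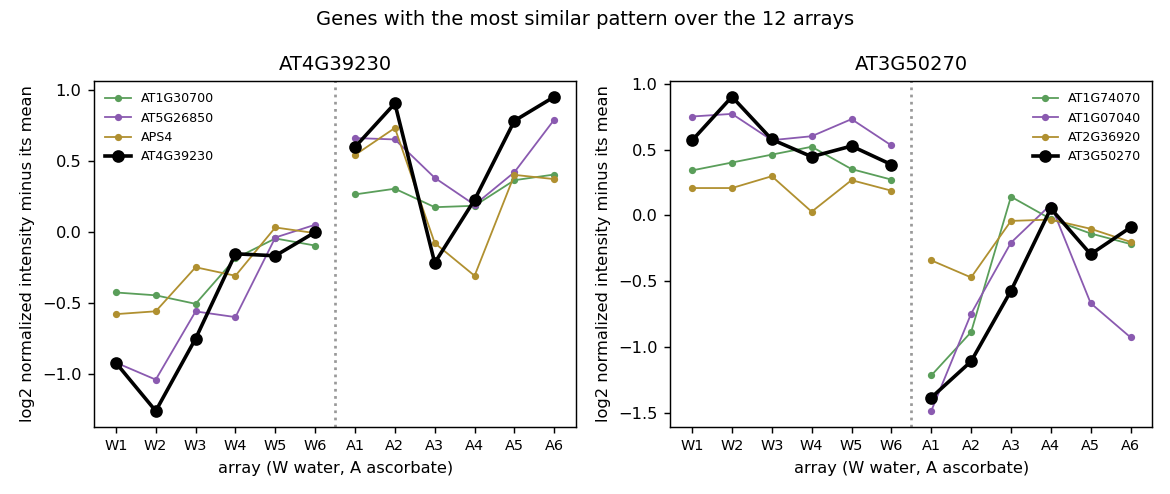
Quantile-normalized log2 intensity minus its mean over the 12 arrays for AT4G39230 and AT3G50270 (black) and the 3 single-gene probes most like each, by array, with W1 to W6 water and A1 to A6 ascorbate, and lines only to guide the eye. The highest correlation was 0.93 for AT1G30700 with AT4G39230 and 0.92 for AT1G74070 with AT3G50270.

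With the group means removed, the most alike genes, out of the same 547, were largely others. For AT4G39230 they were AT2G47360, AT1G30700 and AT2G26110, with Pearson's r of 0.85, 0.85 and 0.83 and Spearman's rho of 0.92, 0.86 and 0.73 over the 12 deviations. For AT3G50270 they were AT4G39760, AT1G06730, a gene for a pfkB-type sugar kinase, and AT3G50130, with r of 0.86, 0.84 and 0.83 and rho of 0.74, 0.78 and 0.72. Like AT3G50270, these genes had their lowest normalized ascorbate values on arrays 1 and 2, the arrays with the lowest medians. The part of these arrays in the likeness was not tested. Likeness of deviations does not use the difference between the groups. Of the 6 genes picked by it, 2 passed the test between the groups, where 17.1% of all tested probes passed. These 6 genes are too few to set against that share. AT1G30700 rose by 0.57 ± 0.10 (SE, limma adjusted p 0.0027). AT1G06730 rose by 0.45 ± 0.11 (SE, limma adjusted p 0.016), opposite in direction to AT3G50270, from a deposited median of 2.41 to 3.83. The rise was not uniform. Its normalized value went from 1.64 in water to 1.58 in ascorbate under number 1 and from 1.56 to 1.66 under number 2. With numbers 1 and 2 left out its difference was 0.6 ± 0.04 (SE). The others had log2 differences of -0.34 ± 0.32 for AT2G47360, -0.38 ± 0.23 for AT2G26110, -0.61 ± 0.35 for AT4G39760 and 0.05 ± 0.16 for AT3G50130 (SE), with limma adjusted p of 0.51, 0.30, 0.27 and 0.87. The value of AT4G39760 rests on ascorbate array 1, where it was dim at 0.0186, and was -0.27 without that array and -0.06 with numbers 1 and 2 left out. That of AT2G47360 was -0.13 without ascorbate array 3 and -0.20 without water array 6. With the replicate number as a block it was -0.34 ± 0.16 (SE, limma adjusted p 0.18), still without passing. AT3G50130 was lower in ascorbate on the other 3 scales, at -0.47 as deposited, -0.07 after centring and -0.04 after cyclic loess. The call of AT1G06730 was lost with the replicate number as a block (limma adjusted p 0.055) and without number 3, 4, 5 or 6 (limma adjusted p 0.051 to 0.070), and it was at 0.40 to 0.42 without one of these numbers. With consecutive numbers averaged neither AT1G30700 nor AT1G06730 passed (limma adjusted p 0.21 and 0.31). AT1G30700 was the one gene among the 3 most like AT4G39230 on both measures.

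The size of both differences depended on how the intensities were processed, and their direction was the same in every processing tried. Both genes were taken for this direction, and changes of the probe filter or of the block cannot alter the difference. With an offset added before log2 in place of the floor, which shrinks the differences of dim probes by construction, AT4G39230 was at 0.42 ± 0.10 and AT3G50270 at -0.64 ± 0.12 (SE). With consecutive numbers averaged, as if each pair were 1 sample, 3 against 3, the difference of AT4G39230 was 1.08 ± 0.36 and that of AT3G50270 was -1.14 ± 0.32 (SE).

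**Figure D5:**
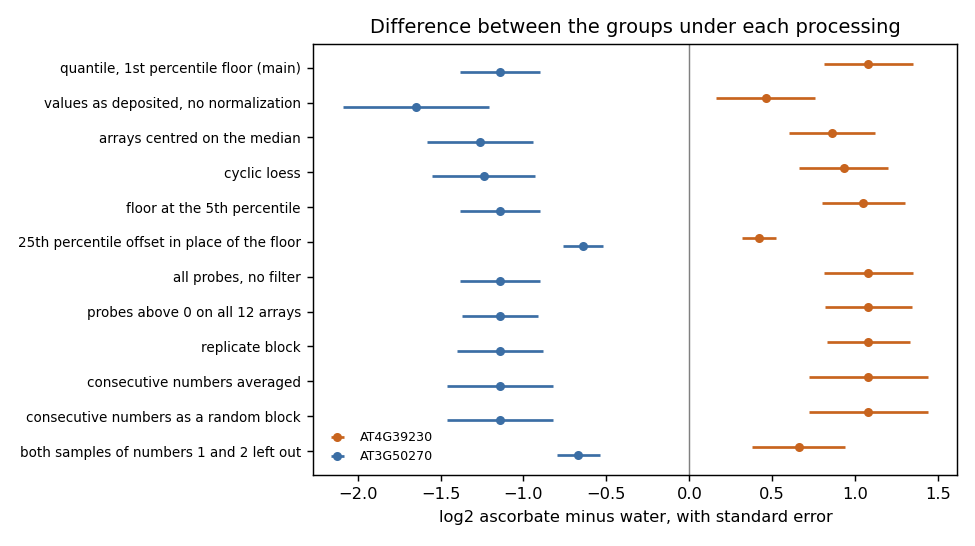
Log2 difference, ascorbate minus water, with its standard error, for AT4G39230 (orange) and AT3G50270 (blue) under 12 ways of processing the intensities. AT4G39230 lies between 0.42 and 1.08 and AT3G50270 between -1.65 and -0.64.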

How the data were processed

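The authors deposited 1 intensity per probe and array on a relative linear scale; how the arrays were scanned, background-corrected and scaled, and on which build, is not given in the sources used here. Intensities at or under the 1st percentile of an array's positive values were raised to it, log2 was taken and arrays were quantile normalized in limma 3.58.1 (R 4.3.3). Probes at 0 throughout (173) were dropped, leaving 3266. Groups were compared with lmFit and eBayes, two-sided, 6 against 6, with Benjamini-Hochberg adjustment over all 3266 and a threshold of 0.05; the method was tested on simulated data. Genes were named from the platform annotation (692 probes with 1 gene, 870 with several, 1877 with none) through the TAIR10.1 gene table of RefSeq, used for names and gene order only. The members and lists were chosen with earlier results of these data known. Named genes were the 2 members, measured list loci, and the 3 single-gene probes most correlated with each member, on levels and on deviations from group means. Same-numbered samples of both groups had deviations from their group means that correlated at 0.35 to 0.56 over all probes. This was above the limit of 0.1, so differences within a number were also given, as values. What same-numbered samples share was not tested. The planned fit has no block for the numbers, so the SE and adjusted p taken from it are unpaired.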

Additional observations from a re-analysis of the deposited data

Results flagged for a closer look

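For AT3G50270, water array 2 stood apart from the other 5 water arrays after quantile normalization, at -0.66 log2 units against -1.18 to -0.99. This was 1 of 8 sets of 6 values examined, with both genes, both groups and the deposited and normalized scales, and chance marks about 1 set in 20. As deposited the same array was also the brightest of its group, at 0.733 against 0.472 to 0.590, but its gap, 0.494 of the range, was under Dixon's limit for 6 values. No cause was tested.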

How the results depend on the processing

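Each difference was recomputed under 29 alternatives, and AT4G39230 stayed above 0 and AT3G50270 below 0 in all of them. Both genes were taken for this direction. The probe filter, the replicate block and the handling of consecutive numbers cannot change the difference. Leaving out 1 number cannot reverse a sign that all numbers share. Nothing is therefore read from the count of alternatives that kept the direction. AT4G39230 moved by over 1 SD of replicates as deposited (0.46) and with the offset (0.42), and AT3G50270 as deposited (-1.65), with the offset (-0.64) and with numbers 1 and 2 left out (-0.67), an alternative added after the data were seen. The offset shrinks differences by construction; the cause of the other shifts was not tested. Leaving out 1 sample or 1 number at a time gave 0.85 to 1.22 for AT4G39230 and -1.30 to -0.94 for AT3G50270. The 559 calls over all probes became 314 to 584 with 1 sample or number left out, at 314 without number 5 and 329 without number 6, 148 with consecutive numbers as a random block and 1 (501 at an unadjusted p under 0.05, against 1006) with consecutive numbers averaged, a fit with fewer values per group. The replicate block left both differences at 1.08 and -1.14, with SE of 0.25 and 0.26, and called 796. AT1G06730, which passed at 0.45, lost its call in 7 of 29 alternatives and AT1G30700 in 1 (limma adjusted p 0.00059 to 0.31 and 0.0017 to 0.21). The difference of AT3G50130, 0.05 and not past the threshold, turned to -0.47 as deposited, -0.07 after centring and -0.04 after cyclic loess, and ran from -0.06 to 0.18 with 1 sample or number left out. The other 8 genes named for their likeness kept their direction. Likeness of levels includes the difference between the groups, and the filter and block cannot change that difference, so nothing is read from this. The sizes of APS4, AT5G26850, AT1G07040 and AT2G36920 moved by over 1 SD of replicates in some alternatives. APS4 was at 0.22 ± 0.17 (SE) with numbers 1 and 2 left out, against 0.55. AT1G07040 ran from -1.80 to -0.72 over the alternatives. The count of called list loci has no alternatives, since 0 list loci besides the described pair had a single-gene probe. Dim signal limits AT4G39230, whose lowest intensity was 0.0982, on water array 2, at 5.38 times the floor. Its lowest multiple of the floor, 4.10, was on water array 6, where the floor was the highest of all arrays at 0.0545. Dim signal also limits AT3G50270 on ascorbate arrays 1 and 2, at 0.0561 and 0.0776.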
